A study of Homo sapiens with 6 samples.

Results

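The cytochrome P450 genes were examined in MCF10.AT1, a preneoplastic human breast epithelial line sensitive to fluvastatin, and in MCF10.AT1-R, its fluvastatin-resistant derivative. Their members were all gene symbols on the array made of CYP followed by a family number, a subfamily letter and a gene number, without CYP51A1 of cholesterol synthesis. This gave 54 genes among the 81496 symbols of the array, covered by 61 probe sets. For each gene the probe set with the highest mean over the 5 arrays compared was used. MCF10.AT1 belongs to the MCF10A series and, as background, carries an activated HRAS gene that the resistant line inherited. The parental samples are labelled as untreated, and MCF10.AT1-R was selected from it in fluvastatin raised from 1 to 20 µM. The treatment text is the same for both lines, and whether the drug was present when the RNA was taken is not given in the sources used here, nor is whether the resistant line is a single clone. Both lines were grown in medium with horse serum, EGF, hydrocortisone and insulin. Total RNA of 3 samples per line, described as biological replicates, was hybridised to Clariom D arrays, which read coding and noncoding transcripts with short probes.

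P450 enzymes are heme proteins that insert an oxygen atom into small lipophilic molecules. In the liver they clear drugs, and in other tissues they make or break down steroid hormones, bile acids, vitamin D, retinoic acid and oxygenated fatty acids. Most take their electrons from P450 oxidoreductase (POR) in the endoplasmic reticulum, and the mitochondrial members take them from ferredoxin (FDX1). Many members are switched on by ligand-sensing transcription factors, such as the aryl hydrocarbon receptor AHR for the CYP1 genes and the vitamin D receptor VDR for CYP24A1.

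Arrays A01 and A02 of MCF10.AT1 were compared with B02, B03 and B04 of MCF10.AT1-R. The letters were assigned to the lines from the study's own plot of the samples, since the sample descriptions do not hold the array names. Array A03 of MCF10.AT1, which the study removed, correlated with the 5 kept arrays at 0.779 to 0.795 over all transcript probe sets, against 0.967 to 0.977 among the kept arrays, and its values are given apart. All values are log2 values from the RMA method. The 612 negative control probe sets mark the background, and their 95th percentile lay between 2.88 and 3.14 on the kept arrays. All 8 breast epithelial marker genes read above it on every kept array. Their summed level was 56.1 to 57.0 in MCF10.AT1 and 70.0 to 70.9 in MCF10.AT1-R, with KRT17, KRT14, TP63 and KRT5 showing the largest differences. Among the hepatocyte markers ALB, APOA2, TTR and FGB were in the background on every kept array. TF exceeded it on B04 alone, and APOA1 was above it on all kept arrays, at 4.51 to 5.15. The summed level of the 6 genes was 15.9 to 16.7 in MCF10.AT1 and 15.1 to 17.0 in MCF10.AT1-R. The steroidogenic, fibroblast, and blood and endothelial lists had 1 of 5, 3 of 6 and 5 of 6 genes above background on all kept arrays. Their summed levels were 16.1 to 16.2, 27.0 to 27.7 and 21.4 to 23.6 in MCF10.AT1, and 15.9 to 16.1, 24.8 to 25.6 and 20.5 to 21.8 in MCF10.AT1-R. MC2R, HSD3B2, LUM, PDGFRB and PTPRC of these lists were in the background on all kept arrays, and the part of other cell types in the P450 values was not tested.

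The share of P450 genes above background was close to that of all genes on the array. A gene was called above background in a line when each kept array of that line exceeded its own 95th percentile of the negative controls. By this measure 19 of the 54 genes (35.2%) were above background in at least 1 line, 13 of them in both lines. CYP4X1 and CYP21A2 passed in MCF10.AT1 alone, and CYP2J2, CYP2S1, CYP4A22 and CYP4F8 in MCF10.AT1-R alone. The percentile was higher on the parental arrays, at 3.14 on A01 and 3.03 on A02, against 2.88, 2.96 and 2.95 on B02, B03 and B04. CYP2S1 thus failed on A02 at 3.01 and passed on B02 at 2.90. CYP4A22 on B03 (3.12) and CYP4F8 on B04 (3.06) lay below the percentile of A01. On no kept array did 26 of the 54 genes exceed the background, and their values ran from 1.04 to 2.97. Over all gene symbols 33.4% were above background in at least 1 line. Pseudogenes of the family, named with a closing P or P and a number, were examined the same way, and 10 of 38 were above background in at least 1 line. Of all 54 genes, 6 exceeded the 99th percentile of the negative controls on every array of a line, namely CYP2U1, CYP26B1, CYP2W1, CYP2D6, CYP20A1 and CYP4F11. The classes differed in these counts. Of the 14 fatty acid and eicosanoid genes 8 were above background in a line, against 2 of the 17 drug and xenobiotic genes and none of the 6 bile acid and oxysterol genes, a difference that was not tested.

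**Figure D1:**
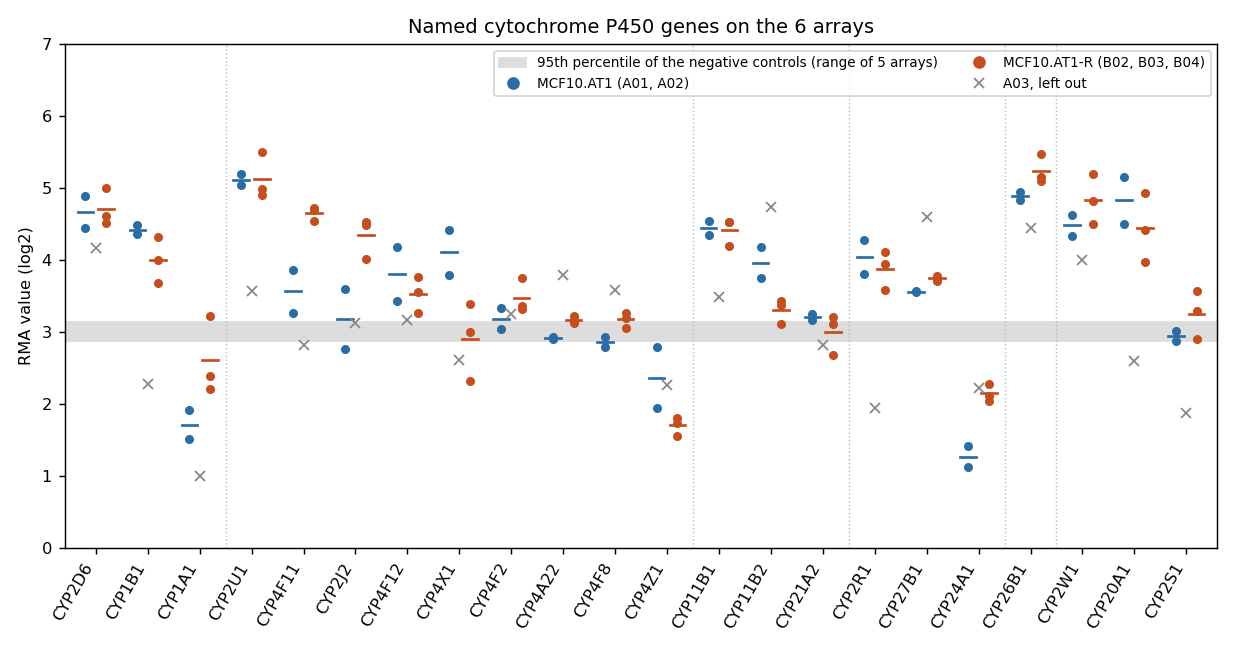
Log2 RMA values of the 22 P450 genes described one by one, grouped by function and separated by dotted lines, with a point for each kept array, a bar for the mean of each line, a cross for A03 and a grey band for the negative controls' 95th percentile on the kept arrays. CYP4F11 and CYP2J2 lie higher on all 3 MCF10.AT1-R arrays and CYP4X1 lies lower, while CYP24A1 and CYP4Z1 stay below the band in both lines.

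Expression of 3 P450 genes differed between the lines at an FDR of 5% in limma, all 3 from the fatty acid and eicosanoid class. CYP2J2 and CYP4F11 were higher in MCF10.AT1-R and CYP4X1 was lower. After removal of low and invariant probe sets 35 of the 54 genes were tested. The other 19 were removed, 14 for a low mean and 5 for a small spread alone, and their values come from the fit without filters. Over all 51457 probe sets tested, 1.2% passed, with 0.758% higher in the resistant line and 0.447% lower there. With both filters limma estimated a common SD of 0.34 for every probe set. Each gene thus had the same standard error of 0.31, and its own spread did not enter the call. The smallest log2 difference that passed over all probe sets was 1.07 in size, so smaller ones did not pass however close their arrays lay. The genes' own SDs were 0.41 for CYP2J2, 0.26 for CYP4F11 and 0.51 for CYP4X1. Without filters none of the 54 genes passed in limma, where 7 had an unadjusted p under 0.05, against 6 in the fit with both filters. The P450 count was also 0 with the low-expression filter alone, with a filter on the negative controls, with values raised to the background and with A03 added. In these 5 fits the share of all probe sets that passed was 0.13%, 0.268%, 0.73%, 0.344% and 0.0447%, in the order given. With values raised to the background, CYP4F11 kept its log2 difference of 1.08, with a standard error of 0.22 and an adjusted p of 0.347 from limma. Probe sets at the floor on every kept array had no spread in that fit, and the effect on limma's variance estimate was not tested. The P450 count was 3 with limma's trend option, with its robust option and with the 5 arrays normalized anew by quantiles. It was also 3 with median centring and with the mean of all probe sets of a gene. The share of all probe sets that passed was then 2.68%, 1.29%, 1.2%, 1.19% and 1.18%.

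CYP2J2, an epoxygenase that turns arachidonic acid into epoxyeicosatrienoic acids, read 3.59 on A01 and 2.77 on A02, against 4.49 on B02, 4.02 on B03 and 4.52 on B04. Each of the resistant arrays exceeded both parental ones, and A02 lay in the background. The parental mean was 3.18 ± 0.58 (SD, n = 2), that of the resistant line was 4.34 ± 0.28 (SD, n = 3), and they gave a log2 difference of 1.16 (standard error 0.31, adjusted p = 0.0206 from limma). Without filters the adjusted p from limma was 0.412. With the background values raised to a log2 floor of 2.99, the negative controls' mean 95th percentile, the log2 difference was 1.05. CYP2J2 read 3.12 on A03, between A01 and A02 and in its background. Leaving out A02, B02 or B04 ended the call, with A02 giving the smallest log2 difference of 0.75 (adjusted p = 0.937 from limma).

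CYP4F11, which hydroxylates the end of long fatty acid chains and of vitamin K, was above background on all kept arrays. It read 3.27 on A01 and 3.87 on A02, against 4.72, 4.54 and 4.69 on B02, B03 and B04. The 3 MCF10.AT1-R arrays lay close together and above both MCF10.AT1 arrays. The parental mean was 3.57 ± 0.42 (SD, n = 2) and the resistant mean 4.65 ± 0.10 (SD, n = 3), with a log2 difference of 1.08 (standard error 0.31, adjusted p = 0.0441 from limma). Without filters the adjusted p from limma was 0.265, and A03 read 2.82, in its background. Leaving out A01, A02, B02 or B04 ended the call, with A01 giving the smallest log2 difference of 0.78.

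CYP4X1, an enzyme known to oxidise the endocannabinoid anandamide, read 4.42 on A01 and 3.79 on A02. On B02, B03 and B04 it read 3.00, 3.39 and 2.32, with B04 in the background. All MCF10.AT1-R arrays lay below both MCF10.AT1 arrays, and A03, at 2.62, lay among them. The parental mean was 4.11 ± 0.44 (SD, n = 2) and the resistant mean 2.91 ± 0.54 (SD, n = 3), with a log2 difference of -1.20 (standard error 0.31, adjusted p = 0.0146 from limma). With the floor at the background the log2 difference was -0.98, and without filters the adjusted p from limma was 0.512. Leaving out A01 or B04 ended the call, at log2 differences of -0.89 and -0.91.

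**Figure D2:**
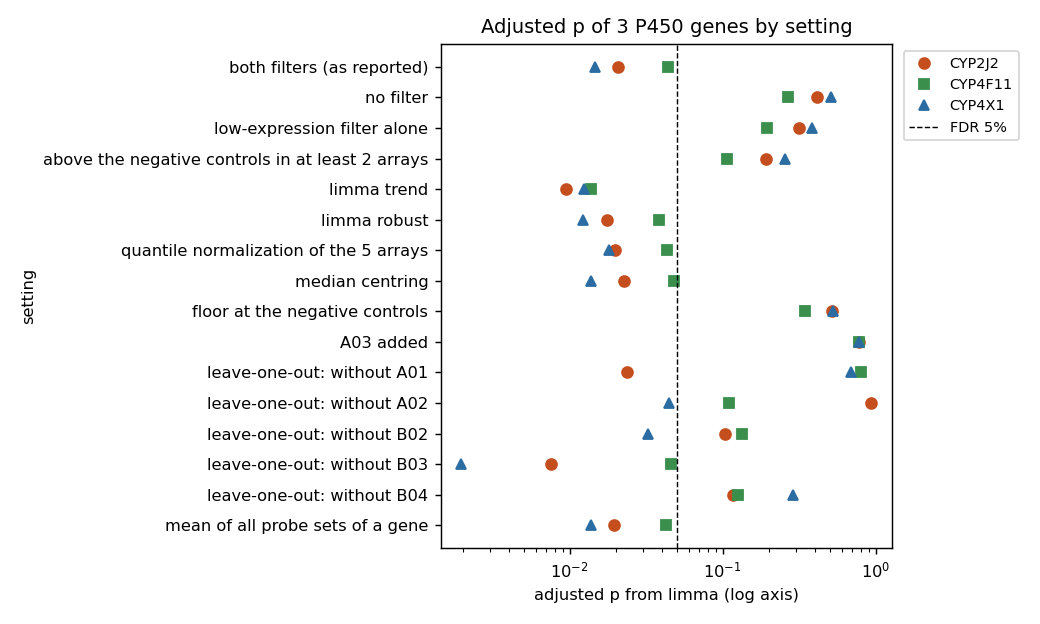
Adjusted p from limma on a log axis for CYP2J2 (circles), CYP4F11 (squares) and CYP4X1 (triangles) in the fit as reported and under 15 other settings, with FDR 5% as a dashed line. All 3 genes lie left of the line in the fit as reported, and all lie right of it without filters, with the low-expression filter alone and with A03 added.

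The stretches of 250 bases before the RefSeq starts of these 3 genes and of CYP1A1 are shown, since AHR and its partner ARNT bind the letters GCGTG and CYP1A1 is their best-known target. They come from RefSeq on GRCh38.p14, read 5′ to 3′ on the strand of the gene. Capitals mark each GCGTG on either strand, where the opposite strand reads CACGC.
CYP2J2, chr1:59926774-59927023, minus strand: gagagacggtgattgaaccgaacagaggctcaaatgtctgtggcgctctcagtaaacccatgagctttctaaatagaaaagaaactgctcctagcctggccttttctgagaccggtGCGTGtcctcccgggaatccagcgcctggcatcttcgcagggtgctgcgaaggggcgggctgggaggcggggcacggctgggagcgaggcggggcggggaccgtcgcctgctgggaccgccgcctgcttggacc
CYP4F11, window 1, chr19:15934530-15934779, minus strand: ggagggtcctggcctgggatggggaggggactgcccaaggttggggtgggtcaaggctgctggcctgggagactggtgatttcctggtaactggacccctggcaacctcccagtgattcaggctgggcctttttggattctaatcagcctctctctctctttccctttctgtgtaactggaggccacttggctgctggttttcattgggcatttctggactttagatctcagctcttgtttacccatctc
CYP4F11, window 2, chr19:15934868-15935117, minus strand: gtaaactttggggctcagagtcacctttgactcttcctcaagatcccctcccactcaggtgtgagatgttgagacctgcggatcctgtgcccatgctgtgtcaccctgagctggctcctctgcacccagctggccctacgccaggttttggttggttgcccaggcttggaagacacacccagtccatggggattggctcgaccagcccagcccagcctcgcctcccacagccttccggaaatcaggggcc
CYP4X1, window 1, chr1:46961114-46961363, plus strand: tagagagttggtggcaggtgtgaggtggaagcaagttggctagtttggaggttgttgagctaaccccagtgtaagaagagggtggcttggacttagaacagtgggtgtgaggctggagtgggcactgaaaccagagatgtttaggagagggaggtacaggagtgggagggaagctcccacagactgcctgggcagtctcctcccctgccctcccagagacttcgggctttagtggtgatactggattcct
CYP4X1, window 2, chr1:47023419-47023668, plus strand: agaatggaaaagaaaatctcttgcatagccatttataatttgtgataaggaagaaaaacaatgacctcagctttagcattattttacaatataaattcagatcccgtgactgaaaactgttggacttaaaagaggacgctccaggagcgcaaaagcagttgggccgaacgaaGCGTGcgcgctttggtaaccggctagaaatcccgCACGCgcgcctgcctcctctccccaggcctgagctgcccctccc
CYP1A1, chr15:74725529-74725778, minus strand: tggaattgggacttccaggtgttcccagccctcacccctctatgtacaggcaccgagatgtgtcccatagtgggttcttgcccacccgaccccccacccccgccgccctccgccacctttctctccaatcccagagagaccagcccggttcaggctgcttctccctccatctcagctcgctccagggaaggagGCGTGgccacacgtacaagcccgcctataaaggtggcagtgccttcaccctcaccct
GCGTG was found once in the CYP2J2 window and once in that of CYP1A1, and 2 matches lay in window 2 of CYP4X1. No match lay in either window of CYP4F11 or in window 1 of CYP4X1. RefSeq windows were matched for 38 of the 54 genes, and 10 of the 38 held GCGTG in at least 1 window. Over all promoter windows of the same length 32.2% held it, against 19.6% of the 51 windows of the P450 genes. TATAAA, the core of the TATA box, was found on either strand in 33.3% of the 51 windows and in 10.7% of all windows. Of the shown genes CYP1A1 held 1 match to TATAAA and window 2 of CYP4X1 held 2. These are counts of letters, and no binding was measured.

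None of the other 11 fatty acid and eicosanoid genes passed. CYP2U1, a hydroxylase of long-chain fatty acids, read 5.04 and 5.19 in MCF10.AT1 and 4.90, 4.99 and 5.50 in MCF10.AT1-R. The arrays of the lines overlapped, and the log2 difference was 0.01 (adjusted p = 0.992 from limma). CYP4F2, which inactivates leukotriene B4 and vitamin K, read 3.34 and 3.04 against 3.75, 3.32 and 3.37, again with overlap and a log2 difference of 0.29. CYP4F12, a related enzyme of the intestine, read 3.44 and 4.18 against 3.76, 3.27 and 3.55, a log2 difference of -0.28. CYP4F8, a prostaglandin hydroxylase of the seminal vesicles, was in the background on A01 and A02, at 2.92 and 2.79, and read 3.20, 3.26 and 3.06 in MCF10.AT1-R. Its log2 difference was 0.18 against the floor. CYP4A22, a relative of the lauric acid hydroxylase CYP4A11, showed the same pattern, at 2.94 and 2.90 against 3.23, 3.12 and 3.17, and its log2 difference was also 0.18 against the floor. Neither passed, with adjusted p of 0.835 for CYP4F8 in limma with filters and 0.849 for CYP4A22 in limma without them. CYP4Z1, known for its expression in the mammary gland, was in the background on every kept array, at 1.95 and 2.79 against 1.56, 1.74 and 1.81. CYP4A11, CYP4B1, CYP4F3 and CYP4F22 were in the background on all kept arrays as well, and CYP4V2 exceeded it on B04 alone.

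Position along the chromosomes was compared with these values. Of the 54 genes, 32 lie within 1 Mb of another member, in 8 clusters. CYP4X1 lies in a cluster of 5 genes on chromosome 1 with CYP4B1, CYP4A11, CYP4Z1 and CYP4A22. CYP4Z1, its neighbour, read lower on all MCF10.AT1-R arrays than on both MCF10.AT1 arrays but within the background, whereas CYP4B1, also in the background, and CYP4A22 read higher there. CYP4F11 lies in a cluster of 6 genes on chromosome 19, where the log2 differences of the other 5 genes ran from -0.28 for CYP4F12 to 0.32 for CYP4F8. CYP4F genes have similar sequences, so probes may not fully separate them. The CYP4F26P pseudogene read 5.20 and 4.69 against 4.88, 5.15 and 5.48, with overlap between the lines.

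Most genes of drug metabolism lay in the background. CYP2D6, which metabolises codeine and tamoxifen, read 4.45 and 4.89 against 4.61, 4.99 and 4.51, with overlap and a log2 difference of 0.03. Of its 7 probe sets 6 were higher in MCF10.AT1-R, with log2 differences between -0.09 and 0.51, and its neighbouring pseudogenes can share probe sequence. CYP1B1, which hydroxylates estradiol and polycyclic hydrocarbons outside the liver, read 4.36 and 4.48 in MCF10.AT1 and 3.996, 3.67 and 4.32 in MCF10.AT1-R. All MCF10.AT1-R arrays lay below, but the log2 difference of -0.42 did not pass (adjusted p = 0.798 from limma). CYP1A1, the inducible hydrocarbon-oxidising enzyme, read 1.91 and 1.51 against 2.39, 3.23 and 2.20. Only B03 exceeded the background, and the log2 difference was 0.90 as measured (adjusted p = 0.179 from limma) and 0.08 against the floor. CYP2A13 and CYP1A2 exceeded the background on 2 and 1 kept arrays. The genes of the class in the background on every kept array include CYP2C8, CYP2C18, CYP2C19, CYP2A6, CYP2B6, CYP2E1, CYP2F1, CYP3A4, CYP3A5, CYP3A7 and CYP3A43.

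Among the steroid hormone genes 3 of 6 were above background in a line. CYP11B1, the last enzyme of cortisol synthesis, read 4.35 and 4.54 against 4.53, 4.53 and 4.19, a log2 difference of -0.03. CYP11B2, aldosterone synthase, read 4.18 and 3.75 in MCF10.AT1 and 3.44, 3.11 and 3.38 in MCF10.AT1-R. All MCF10.AT1-R arrays lay below both MCF10.AT1 arrays, and the log2 difference of -0.65 did not pass (adjusted p = 0.534 from limma). On A03 CYP11B2 read 4.73, above every kept array. CYP11B1 and CYP11B2 have nearly identical sequences, so their values are less certain. CYP21A2, the steroid hydroxylase of the adrenal cortex, read 3.16 and 3.25 against 3.11, 2.69 and 3.21, and its pseudogene CYP21A1P read 3.92 and 4.09 against 3.57, 3.66 and 3.99, so their probes may overlap. CYP11A1, which starts steroid synthesis from cholesterol, CYP17A1, which makes androgens, and CYP19A1, aromatase, were in the background on all kept arrays.

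The vitamin D genes act in sequence. CYP2R1, which performs the first hydroxylation, read 3.80 and 4.28 against 3.95, 4.11 and 3.58, with overlap and a log2 difference of -0.16. CYP27B1, which makes the active hormone, read 3.56 and 3.55 against 3.71, 3.78 and 3.75. Its arrays did not overlap, and the log2 difference of 0.19 did not pass (adjusted p = 0.893 from limma without filters). CYP27B1 read 4.60 on A03, above every kept array. CYP24A1, which breaks the hormone down and is a classic VDR target, was in the background on every kept array, at 1.13 and 1.41 against 2.05, 2.28 and 2.11. All 3 MCF10.AT1-R arrays read above both MCF10.AT1 arrays, but the values of both lines lay within the negative controls, and the adjusted p was 0.331 from limma without filters.

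CYP26B1, which clears retinoic acid, was the one retinoid gene above background in a line. It read 4.83 and 4.94 in MCF10.AT1 and 5.48, 5.09 and 5.16 in MCF10.AT1-R, without overlap, and the log2 difference of 0.36 did not pass (adjusted p = 0.828 from limma). CYP26C1 exceeded the background on 2 kept arrays and CYP27C1 on 1, and CYP26A1 on none. Of the genes with less settled roles, CYP2W1, known from fetal and tumour tissue, read 4.34 and 4.63 against 4.82, 5.19 and 4.50, a log2 difference of 0.36 with overlap. CYP20A1 read 5.16 and 4.50 against 3.97, 4.42 and 4.93, a log2 difference of -0.39 with overlap. CYP2S1, found in epithelia outside the liver, read 2.87 and 3.01 against 2.90, 3.56 and 3.29. CYP2A7 was in the background on every kept array. In the bile acid and oxysterol class CYP7A1, the rate-limiting enzyme of bile acid synthesis, CYP27A1 and CYP39A1 were in the background on every kept array. CYP7B1, CYP8B1 and CYP46A1 exceeded it on 2, 1 and 2 kept arrays.

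**Figure D3:**
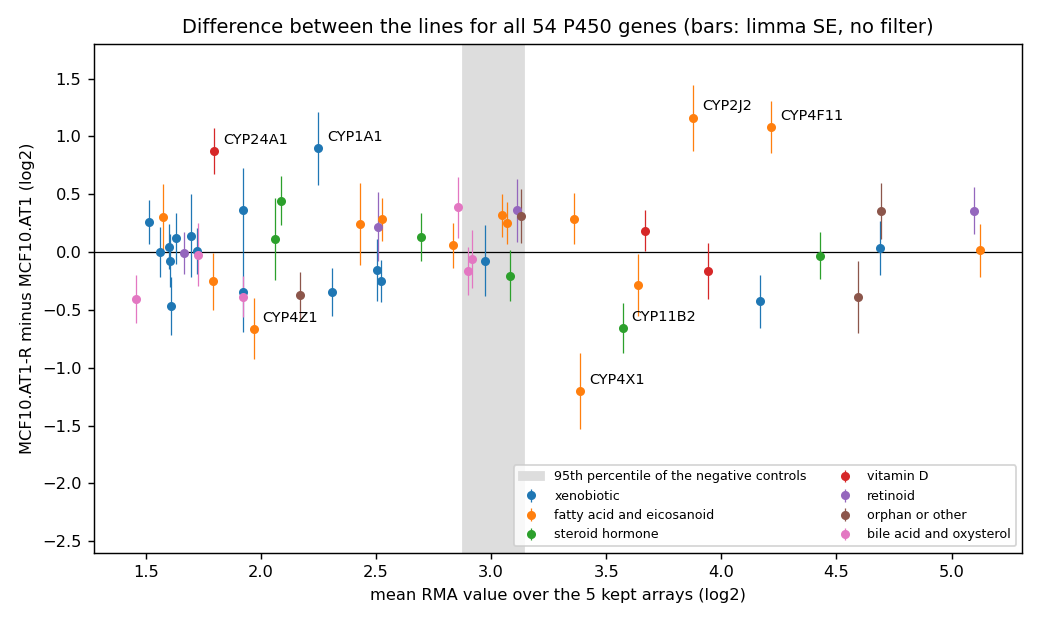
Log2 difference between MCF10.AT1-R and MCF10.AT1 for all 54 P450 genes against their mean over the 5 kept arrays, coloured by function, with limma's standard error without filters as bars and a grey band for the negative controls' 95th percentile. CYP2J2 (1.16), CYP4F11 (1.08) and CYP4X1 (-1.20) lie to the right of the band and farthest from zero, and CYP1A1, CYP24A1 and CYP4Z1 lie to its left.

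Over all 54 genes the log2 difference ran from -1.20 to 1.16 with a median of 0.02, against a median of 0.01 over all 135750 transcript probe sets. For 20 of the 54 genes all arrays of one line exceeded those of the other, 11 higher and 9 lower in MCF10.AT1-R, against 23.3% of all transcript probe sets (12.2% higher and 11.1% lower). With a log2 difference of at least 0.5 added, 7 of the 54 genes remained, against 6.51% of all transcript probe sets. These 7 are CYP2J2, CYP4F11, CYP1A1 and CYP24A1 on the higher side and CYP4X1, CYP4Z1 and CYP11B2 on the lower. Of the 20 genes, 10 were in the background on every kept array. On A03, 13 of the 54 genes read above every kept array and 19 read below every kept array. The shares of all transcript probe sets that did so were not counted, so these counts are not a result about the P450 genes.

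None of the genes that serve or regulate the P450 enzymes passed an FDR of 5% in limma. The common SD applied to them as well, and the smallest log2 difference that passed over all probe sets was 1.07 in size. The lists of redox partners, AHR pathway genes, receptors that regulate P450 genes, heme metabolism genes and P450 enzymes outside the naming pattern matched 56 entries, of which 42 were above background on all kept arrays, and 31 were tested, of which 3 had an unadjusted p under 0.05 (ALDH3A1, TBXAS1 and CYB5R1). When the variance followed the expression level (limma's trend option) 5 passed, CYB5A, CYB5R1 and VDR higher and ALDH3A1 and NQO1 lower in MCF10.AT1-R. That option called 2.68% of all probe sets tested, against 1.2% without it. All 10 matched redox partners were above background on the 5 kept arrays. Oxidoreductase POR read 4.68 and 4.22 against 4.25, 4.13 and 3.32, with overlap and a log2 difference of -0.55 (adjusted p = 0.680 from limma). CYB5A, cytochrome b5, which helps some P450 reactions, read 8.58 and 8.25 against 8.86, 8.79 and 8.78. Its arrays did not overlap, and the log2 difference was 0.39 (adjusted p = 0.814 from limma). The cytochrome b5 reductase CYB5R3 read 6.21 and 6.05 against 5.92, 6.06 and 6.11, and the related CYB5R1 read 4.92 and 5.10 against 6.25, 5.59 and 5.67, a log2 difference of 0.83 (adjusted p = 0.268 from limma). The mitochondrial ferredoxin FDX1 read 5.81 and 5.86 against 5.25, 5.39 and 5.39, a log2 difference of -0.49 (adjusted p = 0.746 from limma). Its reductase FDXR read 5.32 and 5.67 against 5.43, 5.74 and 5.54.

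In the AHR pathway 9 of 10 matched genes were above background on all kept arrays. AHR itself read 8.19 and 7.98 against 8.24, 8.04 and 8.26, and ARNT read 5.14 and 5.30 against 5.09, 4.98 and 5.14, both with overlap. Of the 10 genes 5 read lower on every MCF10.AT1-R array than on both MCF10.AT1 arrays, and none read higher. Over all transcript probe sets, whatever their level, the shares were 11.1% lower and 12.2% higher. By the same measure 5 of the 10 redox partners read higher and 1 lower. Among the 21 receptors 3 read higher and 0 lower, and among the 13 heme genes 1 read higher and 3 lower. These list counts were not tested. The lower AHR pathway genes include HSP90AB1, with a log2 difference of only -0.07. They also include ALDH3A1, an aldehyde dehydrogenase, which read 6.02 and 5.80 against 4.90, 4.98 and 5.04. Its log2 difference was -0.94 (adjusted p = 0.139 from limma). NQO1, a quinone reductase, read 9.41 and 9.45 against 8.96, 8.76 and 9.05, a log2 difference of -0.51 (adjusted p = 0.733 from limma). The median log2 difference of the AHR pathway list was -0.13.

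Of the 21 receptors 11 were above background on all kept arrays and 6 on none, among them the drug sensor NR1I2 (PXR). VDR read 8.07 and 8.09 against 8.54, 8.43 and 8.53, without overlap and with a log2 difference of 0.42 (adjusted p = 0.803 from limma). RXRA, the partner of VDR and of some of the other receptors, read 5.43 and 5.48 against 5.75, 5.50 and 5.95, a log2 difference of 0.28. Of the 13 heme genes 12 were above background on all kept arrays. ALAS1, the rate-limiting enzyme of heme synthesis, read 6.49 and 6.76 against 6.48, 6.20 and 6.16, a log2 difference of -0.35 (adjusted p = 0.834 from limma). HMOX1, which breaks heme down, read 3.19 and 3.44 against 3.28, 3.13 and 3.08. The P450 enzymes outside the naming pattern are TBXAS1, thromboxane synthase, and PTGIS, prostacyclin synthase. TBXAS1 exceeded the background on A02 alone, at 3.64 against 1.72 on A01, and PTGIS on none.

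**Figure D4:**
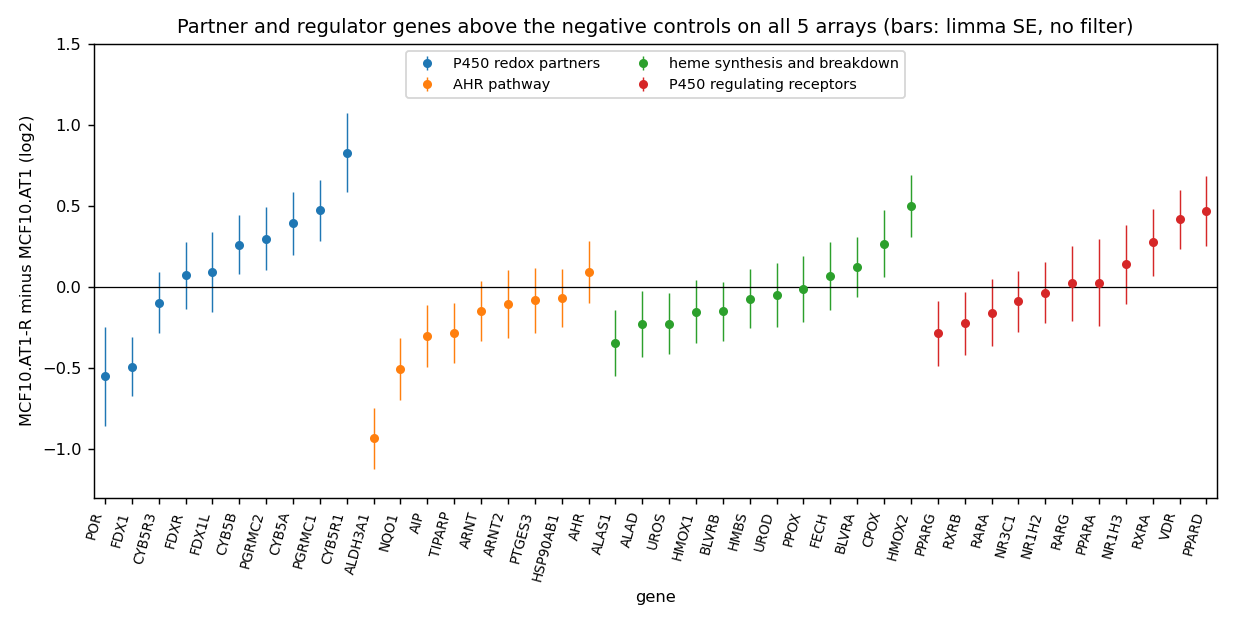
Log2 difference between MCF10.AT1-R and MCF10.AT1 for the 42 partner and regulator genes above the negative controls on all 5 kept arrays, coloured by list, with limma's standard error without filters as bars. ALDH3A1 (-0.94) and CYB5R1 (0.83) lie farthest from zero, and none passed an FDR of 5% with or without filters.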

How the data were processed

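The deposited table holds log2 values, which the authors computed from the scanned arrays by RMA (affy and oligo in Bioconductor), unfiltered and for all 6 arrays. Package versions, genome build and annotation release are not given in the sources used here. The median over transcript probe sets was 2.15 on A03 and 1.89 to 1.91 on the kept arrays, and whether A03 was normalized together with them is not given in the sources used here. The arrays give no depth, and their number limits the precision.

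The members, gene lists and filters were chosen with earlier results of these data known. A probe set entered the test if its average on the 5 kept arrays exceeded the median over probe sets (1.88) and its SD exceeded the 25th percentile (0.18). The limits are not in the methods. The moderated test of limma 3.58.1 (lmFit, then eBayes; R 4.3.3) was two-sided, with Benjamini-Hochberg adjustment over all probe sets tested and FDR 5%. The values of 1 member are not reported here, and it is kept in the counts. Genes named with array values were above background in a line, past FDR 5%, or without overlap at a log2 difference of at least 0.5. From the partner lists the genes fixed for naming are POR, CYB5A, CYB5R3, FDX1, FDXR, AHR, ARNT, VDR, RXRA, NR1I2, ALAS1 and HMOX1. CYB5R1, ALDH3A1, NQO1, TBXAS1 and PTGIS were added after their values were seen. FDX2 was matched as FDX1L, and UGT1A6 and CYP2D7 were not matched to a symbol. The alternatives changed the arrays, the filter, the variance model, the normalization, the floor and the handling of several probe sets. Motifs were searched in RefSeq promoter windows, cut at the start.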

Additional observations from a re-analysis of the deposited data

Results flagged for a closer look

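Array A03 of MCF10.AT1 was left out of the comparisons as reported and entered only the alternative fit that adds it. On it, 7 of the 54 P450 genes read above its own negative controls' 95th percentile of 3.15 and above each of the 5 kept arrays. They are CYP11B2 (4.73 on A03), CYP27B1 (4.60), CYP4A22 (3.79), CYP4F8 (3.58), CYP46A1 (3.51), CYP8B1 (3.42) and CYP1A2 (3.40). The highest kept array was 4.18 for CYP11B2, 3.78 for CYP27B1, 3.23 for CYP4A22, 3.26 for CYP4F8, 3.35 for CYP46A1, 3.35 for CYP8B1 and 2.97 for CYP1A2. A larger group of 19 of the 54 genes read below every kept array on A03, among them CYP20A1 (2.59), CYP1B1 (2.27) and CYP2R1 (1.94). The shares of all transcript probe sets that did either were not counted, so these counts are not a result about the P450 genes.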

How the results depend on the processing

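The count of 3 P450 genes past FDR 5% was 0 without filters, 0 with the low-expression filter alone, 0 among probe sets above the negative controls in at least 2 arrays, 0 with the floor at the negative controls and 0 with A03 added. Leaving out each array in turn gave 0 to 3, with 1 without A01 (CYP2J2), 1 without A02 (CYP4X1), 1 without B02 (CYP4X1) and 0 without B04. The remaining MCF10.AT1 array is then assumed to vary like the other line. The count stayed at 3 with the trend or robust option, both other normalizations and the mean of all probe sets, and the cause of the losses was not tested. The count of 0 partner and regulator genes became 5 with the trend option, and leaving out each array gave 0 to 1, the 1 being TBXAS1 without A01. The count of 19 genes above background was 6 with the negative controls' 99th percentile, 8 with the 95th percentile of 23 background probe sets of set GC content, and 22 when the mean of a line was used. Some differences of the 22 genes named changed sign, none of which had passed. With A03 added, the log2 difference became 0.36 for CYP20A1, 0.29 for CYP11B1, 0.29 for CYP1B1, 0.54 for CYP2R1, -0.16 for CYP27B1 and -0.036 for CYP4A22. Leaving out single arrays gave -0.057 to 0.13 for CYP2U1, -0.19 to 0.25 for CYP2D6, -0.41 to 0.078 for CYP2R1 and -0.65 to 0.090 for CYP4F12. Without a change of sign it gave -0.72 to -0.061 for CYP20A1, 0.18 to 0.53 for CYP2W1, 0.14 to 0.44 for CYP4F2, 0.15 to 0.48 for CYP2S1, -0.59 to -0.26 for CYP1B1, -0.87 to -0.44 for CYP11B2, -0.31 to -0.16 for CYP21A2, 0.59 to 1.10 for CYP1A1 and -1.08 to -0.59 for CYP4Z1, none of which passed. CYP2J2, CYP4F11 and CYP4X1 kept their direction under all 15 alternatives, at 0.75 to 1.58, 0.78 to 1.38 and -1.51 to -0.70, with adjusted p from limma between 0.00196 and 0.937. No paired analysis was possible because the numbers in the array names could not be matched to the replicate numbers of the samples.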
